A study of Mus musculus with 2 samples.

Results

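The 41 genes described here encode the folding machinery of the endoplasmic reticulum, its stress sensors, its protein-conducting channel and the machinery that removes misfolded proteins. They were named by a list of symbols, each gene was read by the probe set with the highest mean signal among those with that single symbol, and either array had to reach a floor of 7 on the log2 scale. All 41 passed, among 9897 of 18193 genes on the array, and all 41 reached 7 in both arrays, so no member entered through its signal in a single array. They comprise 21 chaperones and folding enzymes, 5 sensors, 9 genes of degradation and 6 of the translocon.

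Total RNA came from cultures of rib chondrocytes, the cartilage-forming cells, of mice aged 5 days, and was hybridised to Affymetrix mouse genome arrays. One culture was wild type (the control) and the other was labelled as a miR-140 knockout, lacking a microRNA abundant in cartilage. Both carried a strain label naming C57BL/6 and CBA, and the arrays were made to look for transcripts that miR-140 may repress. Each group had 1 array, so every difference below is knockout minus wild type on the log2 scale for this pair, with no replicate check, no test and no error. How many mice a culture came from, their sex and the extent of the deletion are not given in the sources used here, and in bulk RNA fewer cells of a type and less RNA per cell cannot be told apart.

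Proteins bound for secretion enter the endoplasmic reticulum through the Sec61 channel, are folded there by chaperones and oxidoreductases, and are sent back to the cytosol for destruction when folding fails. When unfolded proteins build up, the sensors IRE1, PERK and ATF6 set off the unfolded protein response: IRE1 splices Xbp1 messenger RNA, PERK slows translation and favours ATF4, and ATF6 is cut to a transcription factor. Chondrocytes secrete large amounts of collagen and proteoglycan and depend on this system, and mutant cartilage matrix proteins are a known source of endoplasmic reticulum stress in the growth plate.

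The sequences that tie many of these genes to the response lie in their promoters and are shown first. The classical endoplasmic reticulum stress element, ERSE, is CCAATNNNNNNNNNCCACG and is known to be bound by ATF6 or XBP1 together with the CCAAT factor NF-Y. RefSeq promoter windows of GRCm38.p6, from 250 bases before to 50 bases after a start site, were held for 35 of the 41 genes and were searched on both strands. An exact ERSE was found in 9 of the 35 (25.7%), against 37 of 27025 genes in the table (0.137%) and 13 of 8059 genes above the signal floor (0.161%). The members are counted in both backgrounds. They were listed as genes of this response, so the shares of this and the next elements are a description and not a test. The 9 genes were 7 chaperones and folding enzymes and 2 genes of degradation, and Hsp90b1 held a pair, which makes 10 elements. Each is given 5′ to 3′ on its own strand, from the gene with the lowest difference between the arrays to the gene with the highest, with CCAAT and CCACG in capitals.
Syvn1 (chr19:6046532-6046550, plus strand): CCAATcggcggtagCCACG
Calr (chr8:84847075-84847093, plus strand): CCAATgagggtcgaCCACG
Hspa5 (chr2:34772025-34772043, plus strand): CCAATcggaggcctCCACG
Dnajc3 (chr14:118937827-118937845, plus strand): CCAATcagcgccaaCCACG
Canx (chr11:50325800-50325818, minus strand): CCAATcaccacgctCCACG
Pdia6 (chr12:17266491-17266509, plus strand): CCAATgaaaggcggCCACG
Hsp90b1 (chr10:86705533-86705551, plus strand): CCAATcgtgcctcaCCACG
Hsp90b1 (chr10:86705638-86705656, minus strand): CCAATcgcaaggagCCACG
Derl3 (chr10:75893242-75893260, minus strand): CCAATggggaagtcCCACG
Creld2 (chr15:88819520-88819538, minus strand): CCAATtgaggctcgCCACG

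All 10 elements lay upstream, between 212 and 26 bases before the start site, 6 on the strand of the gene and 4 on the opposite strand. The bases between CCAAT and CCACG differed from gene to gene. ERSE-II, ATTGGNCCACG, holds the same pair of motifs closer together with the CCAAT box reversed. It was found in 2 of the 35 genes (5.71%), against 12 of 27025 (0.0444%) and 8 of 8059 above the floor (0.0993%).
Herpud1 (chr8:94386377-94386387, plus strand): ATTGGgCCACG
Dnajb11 (chr16:22857852-22857862, plus strand): ATTGGcCCACG

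The Herpud1 element began 52 bases before the start site and the Dnajb11 element 7 bases after it. The XBP1 site UPRE, searched as TGACGTGG, was found upstream of Txndc5 and Txndc11 (5.71% of 35 genes, against 0.714% of all and 1.14% of those above the floor). The CCAAT box alone, which every ERSE and ERSE-II contains, was in the windows of 25 of the 35 genes (71.4%), against 41.1% of all genes. Of the 35, 4 genes had several windows and were counted once. No window was searched for Erp29, Hyou1, Manf, Atf6, Derl1 and Sec61a1.

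Whole windows are printed for Hspa5, the best known target of the response, and for Syvn1 and Herpud1, picked after their values were seen because they had the largest differences among genes with either element. Capitals mark the ERSE or ERSE-II.
Hspa5 (chr2:34771840-34772139, plus strand): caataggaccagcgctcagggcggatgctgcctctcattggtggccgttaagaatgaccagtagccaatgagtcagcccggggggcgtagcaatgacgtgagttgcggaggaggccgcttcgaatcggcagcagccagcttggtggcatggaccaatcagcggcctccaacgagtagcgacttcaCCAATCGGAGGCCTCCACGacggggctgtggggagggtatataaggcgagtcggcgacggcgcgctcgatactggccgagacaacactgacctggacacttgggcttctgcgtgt
Syvn1 (chr19:6046326-6046625, plus strand): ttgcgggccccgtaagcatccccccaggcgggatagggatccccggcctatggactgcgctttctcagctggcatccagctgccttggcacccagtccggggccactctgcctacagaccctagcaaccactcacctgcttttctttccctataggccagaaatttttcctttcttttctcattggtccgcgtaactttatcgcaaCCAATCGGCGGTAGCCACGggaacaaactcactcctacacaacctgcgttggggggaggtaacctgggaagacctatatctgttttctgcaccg
Herpud1 (chr8:94386179-94386478, plus strand): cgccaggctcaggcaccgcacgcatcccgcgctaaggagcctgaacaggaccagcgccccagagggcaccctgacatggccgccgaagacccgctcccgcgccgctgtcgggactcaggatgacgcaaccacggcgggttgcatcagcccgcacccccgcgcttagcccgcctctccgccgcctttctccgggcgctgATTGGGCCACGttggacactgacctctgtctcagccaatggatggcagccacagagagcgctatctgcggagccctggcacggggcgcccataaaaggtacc

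**Figure D1:**
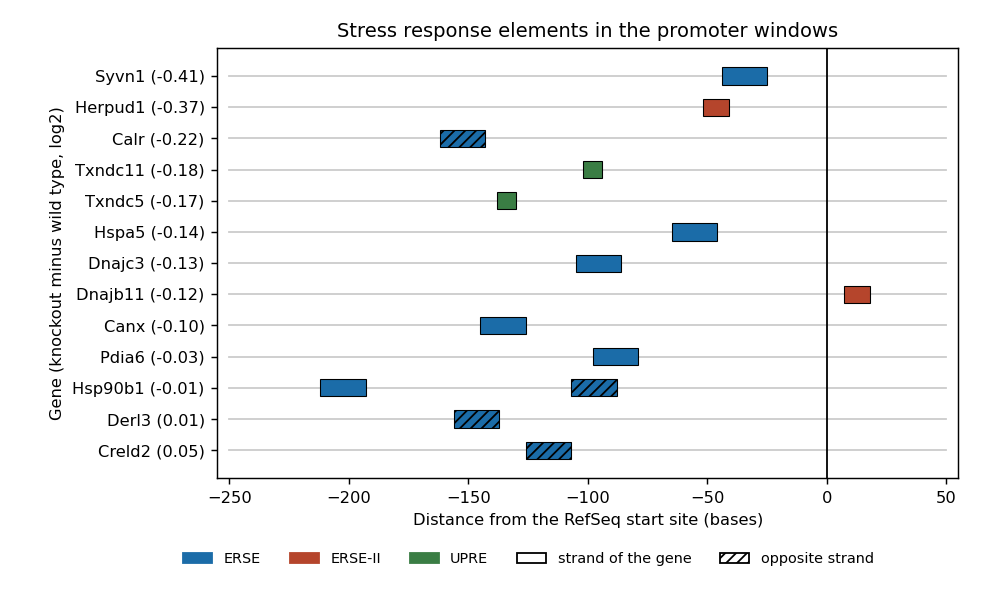
Positions of exact ERSE, ERSE-II and UPRE matches from 250 bases before to 50 bases after the RefSeq start site (x axis, bases) for the 13 member genes that hold one (y axis, with the knockout minus wild-type difference on the log2 scale in brackets; each difference is from 1 array a group). Plain bars are on the strand of the gene and hatched bars on the opposite strand; all ERSE matches lie upstream, and genes with an ERSE run from -0.41 for Syvn1 to 0.05 for Creld2.

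The arrays differed in ways that bear on every value below. Of 16 chondrocyte markers above the floor, 15 had lower signal in the knockout array, with a mean of 11.30 against 9.40 and a median difference of -1.84. Col2a1, the main cartilage collagen, was still at 11.98 in the knockout (wild type 13.98), so the defining collagen of the labelled cell type was measured in both. Of 13 fibroblast and perichondrium markers above the floor, 11 were higher in the knockout, with means of 10.80 and 11.15. None of the 4 osteoblast markers measured reached the floor, and 3 further listed ones, Bglap, Runx2 and Spp1, had no usable probe set. Of 10 plasma and B cell markers 1 reached the floor (Ighm), as did 1 of 5 endothelial and 1 of 5 skeletal muscle markers. Of 8 macrophage and leukocyte markers 5 did, 3 of them higher in the knockout, but the pan-leukocyte marker Ptprc read 4.32 and 4.52. Xist was higher in the knockout array, by 3.59, and 3 probe sets of 18S ribosomal RNA differed by a median of -0.52. Sex was not labelled, so a difference in sex between the cultures cannot be told apart from genotype. The part of the marker, Xist and 18S differences in the values of the folding genes was not tested.

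Across the 41 genes the arrays differed little. In the knockout array 30 genes (73.2%) had lower signal and 11 had higher signal, where 59.2% of all genes above the floor were lower. Their median difference was -0.10, with quartiles of -0.22 and 0.01, against -0.05 for all genes with quartiles of -0.18 and 0.09. It was -0.050 after a further quantile normalization, -0.061 with lowess centring and -0.042 when all probe sets were averaged, where the median of all genes was -0.02 each time. With the differences centred along signal strength by lowess, 24 were lower and 17 higher (58.5% lower, against 54.8% of all genes), so the share of lower genes moves with the scaling.

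No member reached a 2-fold difference in either direction, where 1.22% of all genes were at least 2-fold lower and 0.475% at least 2-fold higher. None reached 1.5-fold either (background 3.56% lower and 1.56% higher). A difference of 1.2-fold was reached by 9 genes in the lower direction (21.95%), against 15.7% of all genes, and by 1 in the higher direction, against 8.2%. The 9 were Ern1, Pdia4, Edem1, Syvn1, Herpud1, Eif2ak3, Derl1, Dnajb9 and Ssr1, and the 1 was Manf. With 1.2-fold small in absolute terms and no replicate, these counts describe the pair of arrays and no more.

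**Figure D2:**
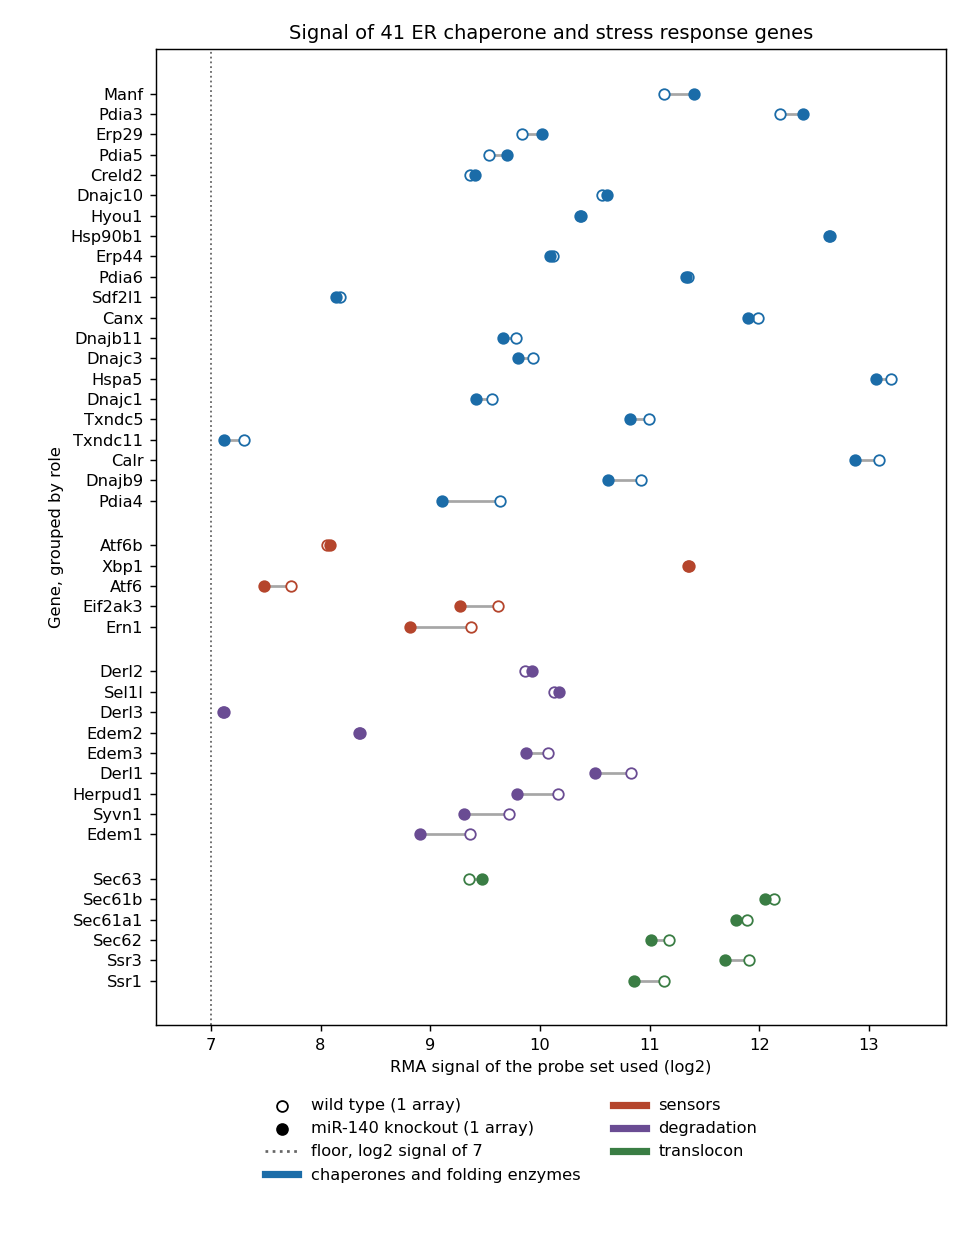
RMA log2 signal (x axis) of the probe set used for each of the 41 genes (y axis, grouped by role and ordered by difference), with open circles for the wild-type array, filled circles for the knockout array and a dotted line at the floor of 7. Most pairs of circles nearly touch; Ern1, Pdia4 and Edem1 show the widest gaps, with the knockout lower, and signals of different genes are from different probes and are not comparable.

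The abundant chaperones were close in both arrays. Hspa5, the Hsp70 chaperone of the endoplasmic reticulum known as BiP and the master regulator of the sensors, read 13.20 in the wild type and 13.06 without miR-140 (-0.14). Its 3 probe sets all stood lower, by -0.18 to -0.12. Hsp90b1, its Hsp90 counterpart, read 12.65 and 12.63. That gene has a further probe set that read 10.85 and 11.73, a difference of 0.88, so its probe sets do not share a direction.

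Calr and Canx, the lectin chaperones that hold newly made glycoproteins, were both slightly lower. Calr read 13.09 and 12.87, and its 3 probe sets lay within -0.23 to -0.19. Canx read 11.99 and 11.89, and its 3 probe sets lay within -0.26 to -0.10. Pdia3, the disulphide isomerase that works with this pair, stood on the other side, at 12.19 and 12.40 (0.21), although a probe set of weaker signal differed by -0.08. The lectin chaperones and their partner therefore had no common direction.

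The other disulphide isomerases and thioredoxin-like proteins were mixed. Pdia4 had the largest difference among the chaperones, at 9.64 in wild type and 9.11 in knockout cells, which is -0.53 or 1.44-fold lower. Only 4.22% of all genes had a difference below that of Pdia4. Pdia5 (9.54 and 9.70), by contrast, was higher by 0.16, and Pdia6 (11.35 and 11.33) differed by -0.03. Erp29, a thioredoxin-fold chaperone without the active site, was higher by 0.18 (9.83 and 10.02). Erp44, which retrieves unassembled cargo from the early secretory pathway, differed by -0.02 (10.12 and 10.09). Txndc5 stood at -0.17 with its second probe set at 0.02, and Txndc11, near the floor at 7.30 and 7.12, at -0.18. The oxidoreductases thus ran from -0.53 to 0.21, and Pdia4 stood apart from the rest of them.

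The J-domain proteins, which deliver substrates to BiP and start its ATP hydrolysis, leaned lower by small amounts. Dnajb9, a strong target of the IRE1 branch, read 10.92 and 10.62 (-0.30, 1.23-fold lower). Dnajc1 (-0.15), Dnajc3 (-0.13) and Dnajb11 (-0.12) were closer, and Dnajc10, which reduces disulphides ahead of degradation, stood at 0.04 with probe sets from -0.16 to 0.15. Of these 5 genes 4 were lower, where 59.2% of all genes were, and Dnajb9 alone passed 1.2-fold. The nucleotide exchange factor Hyou1, which releases substrates from BiP, read 10.37 and 10.36, although a weaker probe set differed by -0.31.

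Sdf2l1 (8.18 and 8.14), a partner of Dnajb11, and Creld2 (9.36 and 9.41), a secreted stress-induced factor, differed by -0.03 and 0.05. Manf, a small stress-induced protein that binds BiP, read 11.13 in wild type and 11.41 in knockout cells. Its difference of 0.28, 1.21-fold higher, was the highest of the 41, and 92.6% of all genes lay below it. Thus Dnajb9 and Manf, both textbook targets of the response, stood on different sides of 0. In all, 15 of the 21 chaperones and folding enzymes were lower (71.4%, against 59.2% of all genes), but most by little. Their median, -0.03, lay above that of all genes (-0.05), and 2 of them (9.52%) were at least 1.2-fold lower, against 15.7% of all genes. With lowess centring that median was -0.0049, against -0.0233 for all genes. Without the probe sets for shared transcripts it was -0.0955 over 17 genes, against -0.045 for all genes. With averaged probe sets it was -0.0417 over 19 genes, against -0.0174 for all genes. Whether the chaperone median lay above or below that of all genes therefore depends on the setting.

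The sensors included the largest difference of the 41. Ern1, which encodes IRE1 alpha, read 9.38 in wild type and 8.82 in knockout cells, which is -0.56 or 1.47-fold lower, and 3.89% of all genes lay below it. Its other probe set above the floor read 8.004 and 7.96 (-0.05), so the size of the Ern1 difference depends on the probe set. Eif2ak3, which encodes PERK, read 9.62 and 9.27 (-0.35, 1.27-fold lower) and has no further probe set above the floor.

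The transcription factor arms were closer between arrays. Atf6 read 7.73 and 7.48 (-0.25), and its paralogue Atf6b 8.06 and 8.09 (0.03). Xbp1, whose messenger RNA is the substrate of IRE1, read 11.36 and 11.35, and 3 further probe sets stood at -0.03, -0.02 and 0.19. The spliced and unspliced forms of Xbp1 were not told apart here. Of the 5 sensors 4 were lower (80.0%, against 59.2% of all genes), with a median of -0.25. This is a small set whose median is that of a single gene, Atf6. When probe sets were averaged, 2 sensors stayed above the floor and their median was 0.031.

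Genes of endoplasmic reticulum-associated degradation differed among themselves. Syvn1, the ubiquitin ligase HRD1, read 9.72 and 9.30 (-0.41, 1.33-fold lower), and its second probe set stood at -0.46. Herpud1, which organises the HRD1 complex, read 10.17 and 9.79 (-0.37), and its second probe set stood at -0.32. Edem1, which helps trim mannose from misfolded glycoproteins, read 9.36 and 8.91 (-0.46, 1.37-fold lower), with its second probe set at -0.22. For each of these 3 genes both probe sets read lower without miR-140.

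Derl1, a derlin of the retrotranslocation channel, read 10.83 and 10.50 (-0.33), but its 4 probe sets ran from -0.46 to 0.20. Edem3 stood at -0.20 with a weaker probe set at 0.38. Derl2 stood at 0.06, but its other probe set read 7.70 and 7.39 (-0.31). Derl3 (0.01) and Edem2 (-0.02) differed little, and Derl3 lay close to the floor at 7.11 and 7.12. Sel1l, the adaptor that holds the ligase Syvn1 in place, read 10.13 and 10.17 by the probe set used. All 5 of its probe sets were higher in the knockout, from 0.04 to 0.95, and it was the 1 gene with several probe sets above the floor of which all were higher. The ligase and its adaptor therefore stood on different sides of 0. The 9 genes had a median of -0.20, with 6 lower (66.7%, against 59.2% of all genes) and 4 (44.4%) at least 1.2-fold lower, against 15.7% of all genes.

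Of the 6 translocon genes, 5 were slightly lower by the probe set used. Sec61a1, the pore subunit, read 11.89 and 11.79 (-0.10), with 6 probe sets from -0.18 to 0.44, 3 of them lower. Sec61b, a small subunit of the channel, read 12.14 and 12.05 (-0.08). Sec62 (-0.16) and Sec63 (0.11), which serve post-translational entry and BiP recruitment, differed in sign, and the 5 Sec63 probe sets ran from -0.26 to 0.64. Ssr1 read 11.13 and 10.85 (-0.27, 1.21-fold lower) and Ssr3 read 11.91 and 11.69 (-0.22). Both encode subunits of the translocon-associated complex, and all of their probe sets above the floor were lower. The group had 5 of 6 genes lower (83.3%, against 59.2% of all genes) and a median of -0.13, against -0.05 for all genes. The group median was -0.072 after a further quantile normalization and -0.018 when probe sets were averaged. In both of these settings the median of all genes was -0.02.

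Of the 41 genes, 25 had at least 2 probe sets above the floor. The probe sets were all lower in 13 of these genes, all higher in 1 and of mixed sign in 11. That split was not counted over all genes with several probe sets above the floor, so it has no background here. Mixed genes were Hsp90b1, Pdia3, Txndc5, Dnajc3, Dnajc10, Xbp1, Derl1, Derl2, Edem3, Sec61a1 and Sec63. Of 88 member probe sets above the floor, 61 were lower. The share over all probe sets was not counted, and over all genes 59.2% were lower. When all probe sets of a gene were averaged, 35 members stayed above the floor, 20 of them lower (57.1%, against 53.8% of all genes). Of the 35, 5 were at least 1.2-fold lower and 3 higher. The all-gene shares past 1.2-fold were not counted with averaged probe sets. With the brightest probe set they were 15.7% lower and 8.2% higher.

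**Figure D3:**
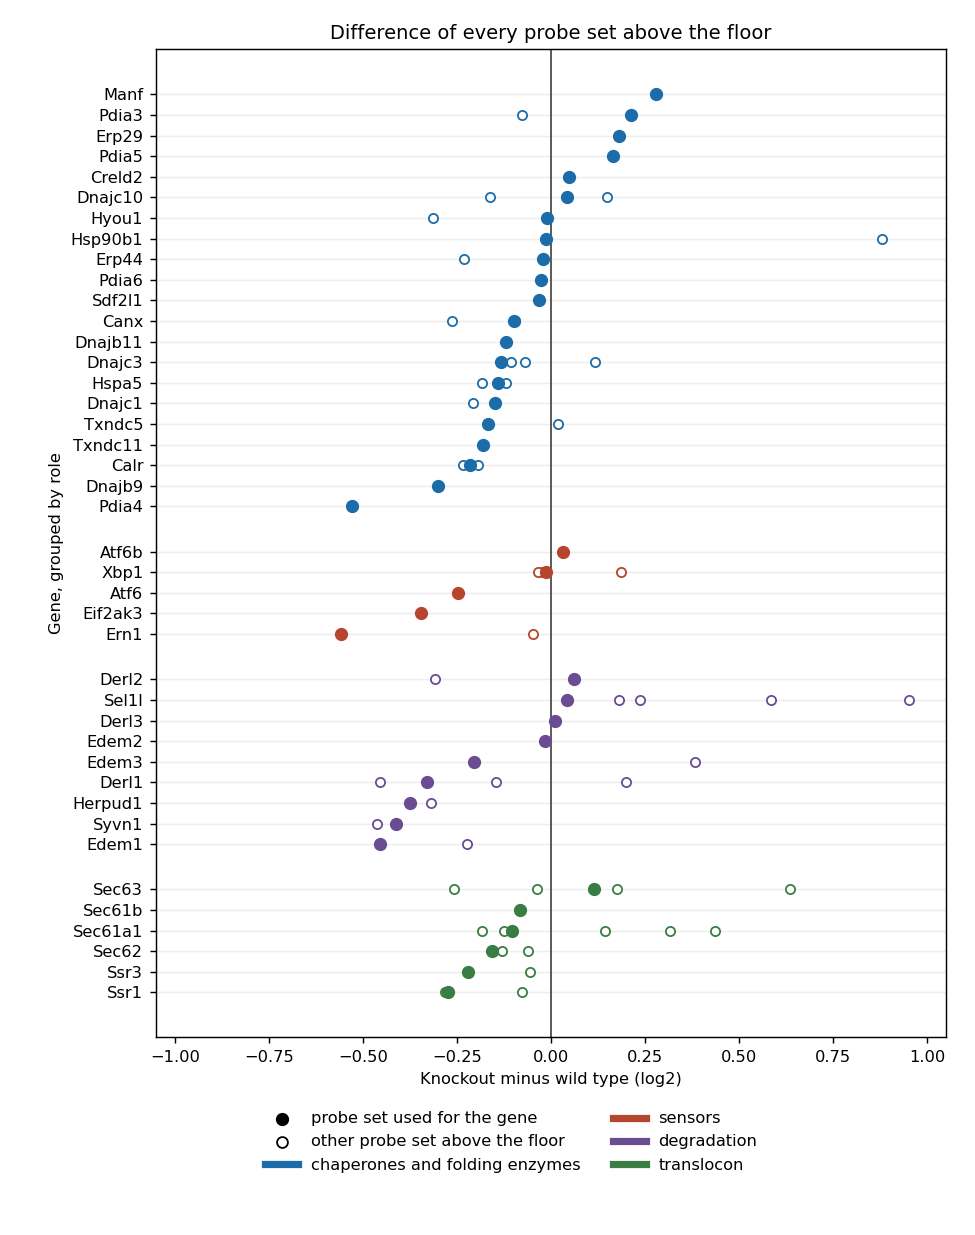
Knockout minus wild-type difference (x axis, log2) of each of the 88 probe sets above the floor for the 41 genes (y axis, grouped by role), from 1 array a group. Filled circles are the probe sets used for the genes and open circles the others; Syvn1, Herpud1, Calr and Hspa5 have tight clusters below 0, whereas Hsp90b1, Sel1l, Sec61a1 and Sec63 spread to values of 0.88, 0.95, 0.44 and 0.64.

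The promoter elements were set beside the differences as a description. The 11 genes with an ERSE or ERSE-II had a median of -0.12, ranging from -0.41 to 0.05, and 9 of them were lower. The 24 genes whose windows held neither had a median of -0.11, ranging from -0.56 to 0.21, and 17 were lower. Over all genes above the floor 59.2% were lower. The medians of the genes with and without an exact ERSE or ERSE-II were close, and those without ran further in both directions. Those without include Txndc5 and Txndc11, which hold an exact UPRE. Syvn1 and Herpud1, printed above, lay far from Hsp90b1 and Creld2 although all 4 hold an element. Only exact matches were counted. The absence of these letters from a window says nothing of inexact elements inside it or of elements elsewhere.

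Other genes of the same pathway were counted from 5 further lists of 155 symbols in all, of which 146 had a probe set and 135 were above the floor. Of the 135, 97 were lower (71.9%, against 59.2% of all genes), and the median was -0.11. At least 1.5-fold lower signal was found for 10 (7.41%, against 3.56%) and higher signal of that size for none (background 1.56%).

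The genes downstream of PERK had larger differences than the folding genes. Of 16 genes in the list of the ATF4 and CHOP branch, 13 were lower (81.25%, against 59.2% of all genes), and the median was -0.29. At least 1.5-fold lower signal was found for 6 of them (37.5%, against 3.56% of all genes). Trib3, a pseudokinase induced by ATF4, read 9.43 and 8.23 (-1.20, 2.30-fold lower), and both its probe sets were lower. Chac1, a glutathione-degrading enzyme of the same branch, read 9.63 and 8.63 (-0.998). Ddit3, which encodes CHOP, read 10.75 and 9.93 (-0.82, with its second probe set at -0.12), and Atf5, an ATF4-related transcription factor, 10.19 and 9.38 (-0.81). Several genes of this list also respond to amino acid supply, and the list was written with earlier results of these arrays known.

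Among 17 further regulators above the floor, 13 were lower (76.5%, against 59.2% of all genes) and the median was -0.28. It was -0.13 both with a floor of 8 and with no floor, and -0.057 when probe sets were averaged. Creb3l2 (BBF2H7), a membrane-bound transcription factor needed for secretion by chondrocytes, read 10.38 and 9.65 (-0.74, 1.67-fold lower), and both probe sets were lower. Wfs1 (-0.48), an endoplasmic reticulum membrane protein, Traf2 (-0.44), an adaptor of IRE1, and Bak1 (-0.44), a cell death effector, were next in size. The knockout signal of Traf2, 6.82, was under the floor.

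The remaining lists had medians closer to that of all genes. Of 42 other folding and oxidation genes, which include the cytosolic chaperone genes Hsp90aa1 and Cdc37, 33 were lower (78.6%, against 59.2% of all genes), with a median of -0.10. Ero1a, the oxidase that recharges disulphide isomerases, read 10.75 and 9.86 (-0.89, 1.86-fold lower), and its 3 probe sets ran from -0.89 to -0.17. Dnajb12 (-0.45) and Mogs (-0.41) were lower and Tmx3 was higher (0.44).

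Of 30 other degradation genes 19 were lower (63.3%, close to the 59.2% of all genes), with a median of -0.07. That median ran from -0.14 without the probe sets for shared transcripts to -0.030 when probe sets were averaged. Fbxo2, a ligase subunit that binds glycans, stood at -0.74, Man1b1, a mannosidase, at -0.58, Dnajb12, also in this list, at -0.45 and Rnf5, a ligase of the membrane, at 0.39. Of 31 translocation and glycosylation genes 20 were lower (64.5%, also close to the share of all genes). Their median was -0.06, and it was 0.0001 when probe sets were averaged. Stt3b, a catalytic subunit of oligosaccharyltransferase, read 12.83 and 12.09 (-0.74), and both probe sets were lower. Spcs3, of the signal peptidase, was higher at 0.41, whereas Srpr and Tram1 stood at -0.32 and -0.30.

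**Figure D4:**
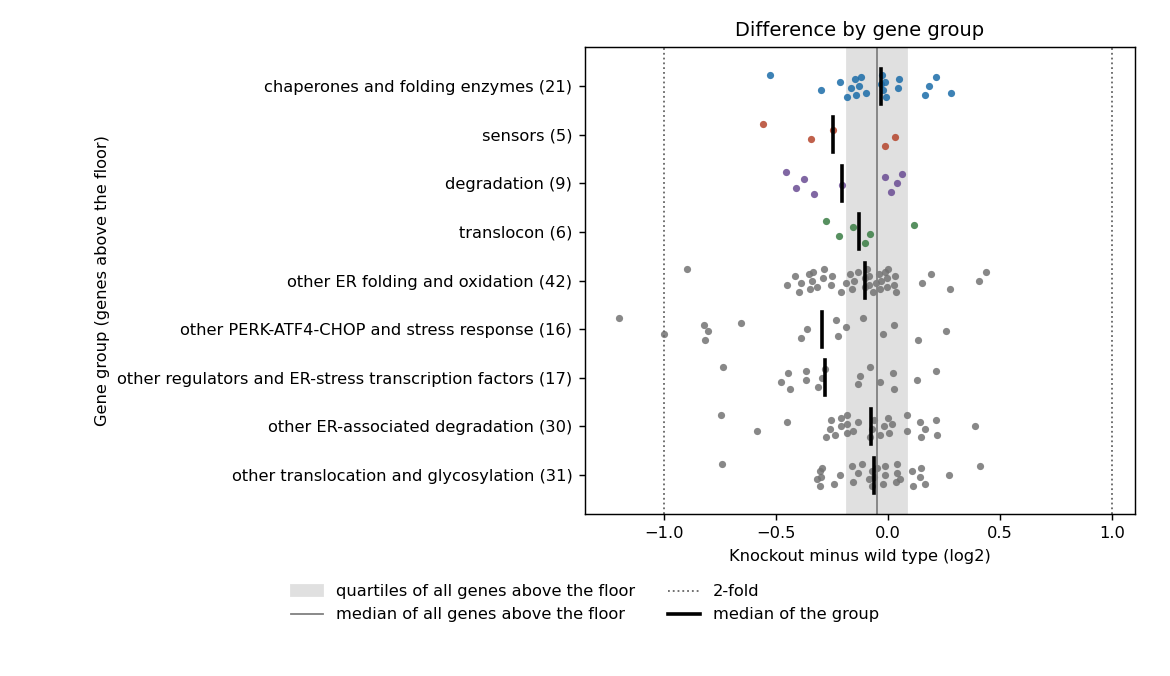
Knockout minus wild-type difference (x axis, log2) of each gene above the floor in the 4 role groups of the 41 genes (coloured) and in 5 lists of other pathway genes (grey), with the number of genes in brackets, from 1 array a group. Black bars are medians, the grey band holds the quartiles of all genes (-0.18 to 0.09) and dotted lines mark 2-fold; the coloured points all lie inside 2-fold, and the list of the PERK, ATF4 and CHOP branch reaches -1.20.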

How the data were processed

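Messenger RNA was measured in 1 wild-type and 1 miR-140 knockout culture, grouped by sample title. The deposited values are log2 signals that the authors made by RMA, per the labels' design text, in Affymetrix Expression Console 1.1, per the submitters' processing notes. RMA gives both arrays nearly 1 distribution (sorted values differed by at most 0.157), so a difference common to most genes would be removed. Values ran from 3.24 to 14.2, which shows the log2 scale. Of 45101 probe sets, 34945 had a single platform symbol, updated through Entrez identifiers in a RefSeq table (34741 matched, 0 changed). The probe set with the highest mean signal stood for a gene, with a floor of log2 7 in either array. With 1 array a group no test was made and their number limits the precision; a list is described by its count and median beside those of all genes. Members and lists were chosen with earlier results of these data known. By rule, all 41 members and up to 4 genes of each further list with the largest differences were named. Promoter windows are RefSeq's and were matched by symbol. The reading of a difference per gene was tested on simulated arrays with planted differences, and the counts of lists and motifs were not. Python 3.11.15, pandas 2.3.3 and statsmodels 0.14.6 were used. Protein sequences and the authors' NIA Array Analysis output were not used here.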

Additional observations from a re-analysis of the deposited data

How the results depend on the processing

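With 1 array a group, no alternative can show how far cultures differ, and signals near the floor have little room above background. Floors of 6, 8, 7 on the mean of both arrays or none, low values raised to 7, lowess centring (span 0.2), centring on the median, another quantile normalization, the mean of all probe sets and probe sets without the suffixes for shared transcripts were tried, and members whose probe sets agree in sign were added after the data were seen. Of 138 recomputed counts, 133 lay within 1.5 times the reported one. The 133 include every member count past 2-fold and past 1.5-fold, which was 0 in all settings. They also include the 20 of 35 members lower with averaged probe sets, against 30 of 41 as reported. The number of genes left in a setting was not taken into account. Of 105 recomputed medians of the members, their role groups and the further lists, 19 moved by over 1.5 times and 2 changed sign. Lowess centring gave 17 higher members (58.5% lower, against 54.8% of all genes). The 30 members with agreeing probe sets gave 7 higher (76.7% lower, against 59.2% of all genes). With the mean of all probe sets, 5 members were 1.2-fold lower and 3 were 1.2-fold higher, the sensors had a median of 0.031 over 2 genes left above the floor, the translocon -0.018, the further regulators -0.057, the further degradation list -0.030 and the translocation list 0.0001. The regulators' median was -0.13 both with a floor of 8 and with no floor. The chaperones' median of -0.03 ran from -0.0955 to -0.0049 over the alternatives. Of the translocation and glycosylation list, 12 of 21 genes were lower with probe sets of unshared suffix, where fewer genes were left. In that setting 58.7% of all genes were lower. The cause of the other changes was not tested. No member past 1.2-fold changed sign in the alternatives that kept it above the floor. Ern1 stayed between -0.57 and -0.53 in those, but all of them read the same Ern1 probe set. With the mean of all probe sets Ern1 fell under the floor, so that range does not cover its other probe set, at -0.05.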

Other observations

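The C/EBP-ATF element, through which ATF4 is known to act, was searched as TGATGNAA on both strands of the same promoter windows. It was found for 2 of the 35 genes with a window, Herpud1 and Txndc5 (5.71%), and for 6 of 111 other pathway genes above the floor (5.41%), against 1219 of 27025 genes in the table (4.51%) and 212 of 8059 genes above the floor (2.63%). The 6 other genes were Trib3, Chac1, Asns, Nupr1, Cnpy2 and Faf2. Their differences between the arrays were -1.20, -0.998, -0.65, -0.36, -0.31 and -0.04, and the first 4 belong to the list of the ATF4 and CHOP branch. These 8-base matches are a description and not evidence of binding.

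An exact ERSE was found in 1 of the 111 other pathway genes, Ero1b (-0.21), and an ERSE-II in 1, Krtcap2 (-0.30).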
